A study of Mus musculus with 12 samples.

Results

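Matrix metalloproteinases (MMPs) are zinc-dependent enzymes that cut proteins of the extracellular matrix, and tissue inhibitors of metalloproteinases (TIMPs) are secreted proteins that bind and block them. The 10 genes described here were taken by name, as 7 MMP genes (Mmp2, Mmp3, Mmp9, Mmp11, Mmp13, Mmp14 and Mmp15) and 3 TIMP genes (Timp1, Timp2 and Timp3), out of 54658 genes in the deposited count files. All 10 passed the filter on low counts, as did 21456 genes in all. RNA sequencing was done on 9 mammary tumours, called 245-T in the labels, and on 3 preparations of CTL epithelium, which the labels describe as enriched from mammary glands. The tumours had the genotype Trp53R245W/+, a p53 missense allele over a normal one that the study's design text calls somatic, and the epithelium was WT. Both groups came from female C57BL/6J X BALB/cJ F1 hybrid mice. Each tumour goes by the number in its title (1, 4, 5, 14, 17, 20, 21, 24 or 27), and each epithelium library likewise by 1, 2 or 3. The labels do not say whether each library came from a different mouse or in which cells of the tumours the p53 allele lay, so p-values measure the spread between these samples only.

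Most MMPs are secreted as inactive proenzymes that other proteases switch on outside the cell, while the membrane-type members stay anchored at the cell surface and Mmp11 leaves the cell already active. Collagenases cut fibrillar collagen, gelatinases cut denatured collagen and the type IV collagen of basement membranes, and stromelysins cut a wide range of matrix proteins. In the mammary gland these enzymes and their inhibitors take part in duct branching and in the regression of the gland after lactation, and in mammary tumours they are made both by tumour cells and by cells of the stroma.

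Of the 10 genes, Mmp13 and Timp1 were higher in 245-T tumours than in CTL epithelium, and in both the groups did not overlap. Mmp13, a collagenase, averaged 26.7 ± 23.995 CPM in tumours (SD, n = 9) and 0.955 ± 0.474 CPM in epithelium (SD, n = 3). Timp1, an inhibitor, averaged 60.5 ± 53.2 CPM in tumours and 5.13 ± 0.849 CPM in epithelium. The other 8 were not called in either direction by edgeR. Tumours differed widely among themselves: 7 of the 10 genes were at least 10 times higher in their highest tumour than in their lowest. How many of all genes had such a range was not counted. CPM are counts per 1000000 after scaling by the trimmed mean of M values (TMM), a difference is a log2 fold change of tumour over epithelium with its standard error (SE), and a gene was called at an edgeR adjusted p under 0.05 over all genes tested.

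Libraries held 19695318 counts in genes (tumour 4) to 33600076 (tumour 1), so that 3 counts, the limit that a count of 0 allows, came to 0.0987 to 0.274 CPM. Tumour 4 was unlike the rest: 51.97% of its alignments were not unique, and a single small nuclear RNA gene, Rn7sk, took 22.58% of its counts. The share of alignments that fell in no gene was 8.08% to 32.3% in tumours and 39.9% to 41.5% in epithelium, without overlap, and a prefix in the library titles also coincides with the group, so batch, genotype and tissue state cannot be told apart. Luminal markers were present in every epithelium library (summed 2919 to 4470 CPM), but these libraries also held T and NK cell markers at a summed 496 to 527 CPM and B cell markers at 656 to 920 CPM, against 5.12 to 41.4 and 2.00 to 69.9 CPM in tumours. Fibroblast markers summed to 4963 to 7392 CPM in epithelium libraries, against 2220 to 35296 CPM in tumours. Endothelial markers came to 893 to 1050 CPM and adipocyte markers to 346 to 543 CPM, against 185 to 605 and 18.7 to 183 CPM in tumours. The whole preparation is therefore what the tumours were set against. In bulk samples like these, fewer cells of a type and less RNA per cell cannot be told apart.

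**Figure D1:**
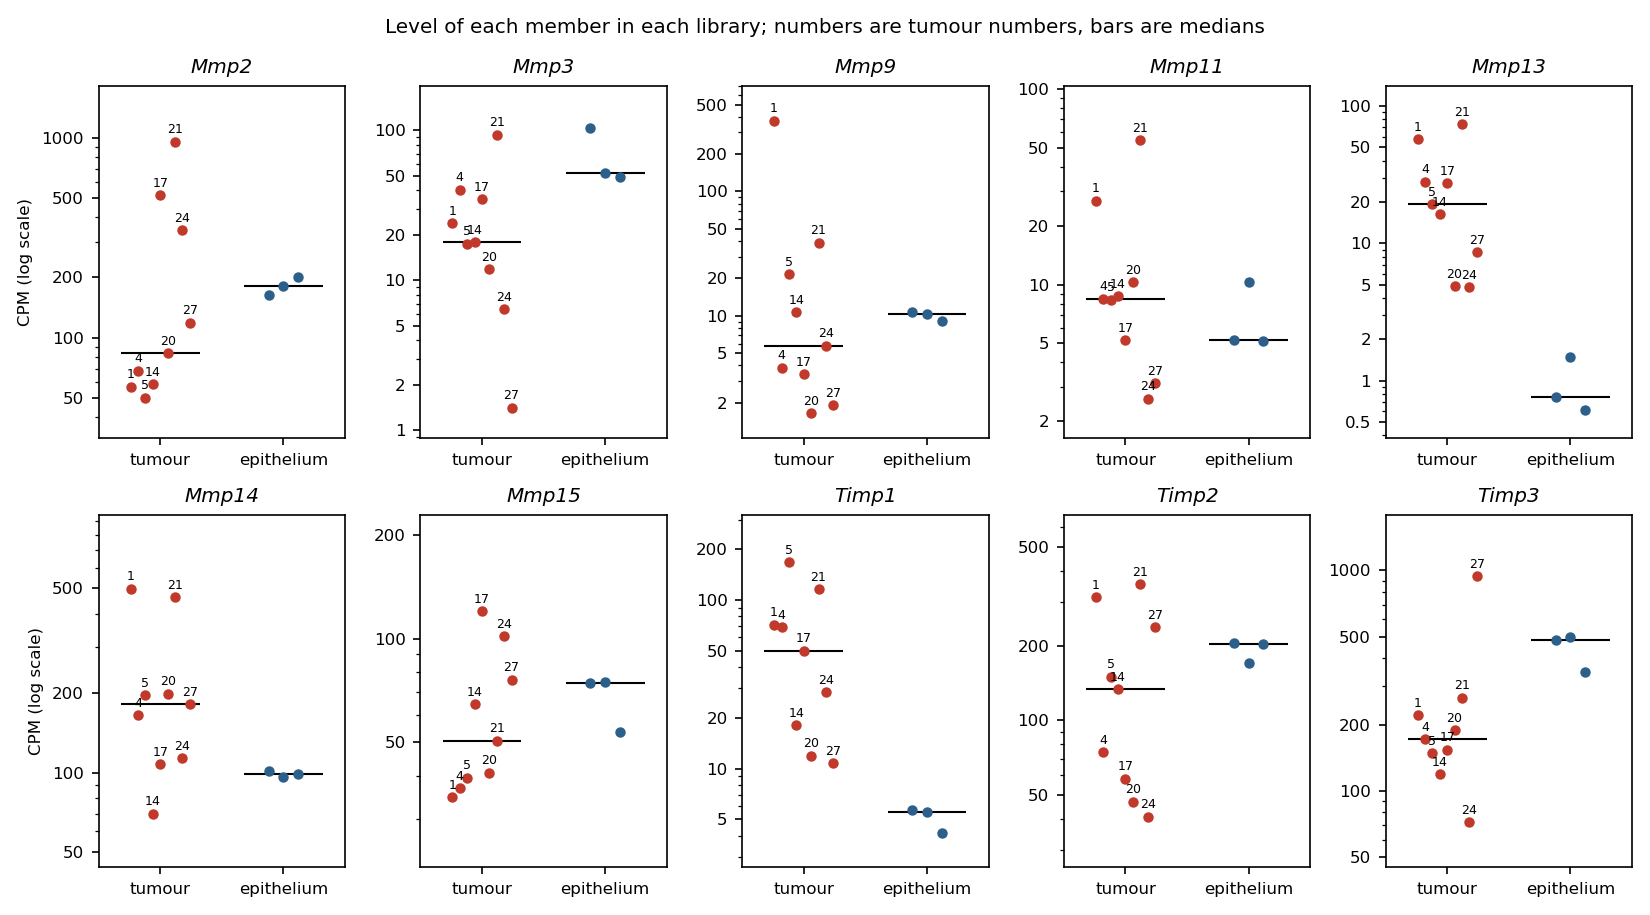
Level of each of the 10 genes in each library, in CPM on a log axis, with the 9 tumours (red, numbered) left of the 3 epithelium libraries (blue) and a bar at each group's median. All 9 tumours lie above all epithelium libraries for Mmp13 and Timp1, and single tumours stand far above the rest for Mmp9 (tumour 1) and Timp3 (tumour 27).

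Mmp13 encodes collagenase-3, the chief collagenase of fibrillar collagen in rodents, and Mmp3 encodes stromelysin-1, which cuts many matrix proteins and also activates other proenzymes. On GRCm38 with GENCODE M21 both genes lie on the plus strand of a cluster of MMP genes on chromosome 9, Mmp13 at 7272514 to 7283331 and Mmp3 at 7445822 to 7455975. The 150 bases before the RefSeq start sites (GRCm38.p6) are shown for both, with the copy of the AP-1 motif in each in capitals, and beside them those of Timp1, the other gene called, whose window holds no copy.
Mmp13, chr9:7272364-7272513, plus strand: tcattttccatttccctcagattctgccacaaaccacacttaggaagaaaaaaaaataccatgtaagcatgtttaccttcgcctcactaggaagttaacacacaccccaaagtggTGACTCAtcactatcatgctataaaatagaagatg
Mmp3, chr9:7445672-7445821, plus strand: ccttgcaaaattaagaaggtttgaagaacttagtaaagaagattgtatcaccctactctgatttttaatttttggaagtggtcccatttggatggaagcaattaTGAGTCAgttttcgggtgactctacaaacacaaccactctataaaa
Timp1, chrX:20870016-20870165, plus strand: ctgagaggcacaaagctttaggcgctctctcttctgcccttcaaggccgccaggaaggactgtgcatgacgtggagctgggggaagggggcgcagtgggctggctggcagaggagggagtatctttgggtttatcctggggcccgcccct
The motif searched was TGAGTCA or its reverse complement TGACTCA, the letters bound by Fos and Jun dimers, in the 250 bases before the start. It began 35 bases before the start in Mmp13 and 46 bases before it in Mmp3, and both windows also hold TATAAA in their last 50 bases. Of the 8 member genes in the RefSeq promoter table, which has no entry for Mmp2 or Mmp9, 2 held the AP-1 letters, against 1466 of all 32851 promoters (4.46%). Among 17 promoter entries of the other family genes 5 held it, those of Mmp1a, Mmp1b, Mmp7, Mmp10 and Mmp12, all on chromosome 9. A match is a match of letters and says nothing of binding, and TATAAA stood in the last 50 bases of 2.63% of all promoters.

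Mmp13 ranged from 4.80 CPM in tumour 24 over a median of 19.3 to 73.7 CPM in tumour 21, against 0.762, 1.49 and 0.609 CPM in epithelium libraries 1, 2 and 3. Every tumour lay above every epithelium library, with tumours 21 and 1 highest and tumours 24 and 20 lowest. The fitted log2 fold change was 4.80 (SE 1.03, edgeR adjusted p = 0.00609), and Mmp13 remained called in 20 of 20 alternative fits, with an adjusted p of at most 0.0479. The epithelium value rests on 83 counts over its 3 libraries.

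Mmp3 ran the other way in most tumours. It ranged from 1.42 CPM in tumour 27 over a median of 18.1 to 93.5 CPM in tumour 21, against 104, 52.1 and 48.8 CPM in epithelium. Tumour 21 fell among the epithelium libraries and the other 8 tumours lay below all of them, so the groups overlapped. The log2 fold change of -1.31 (SE 0.77, adjusted p = 0.237) did not pass the test, and limma-voom weighted by group, which lets the groups differ in spread, gave -1.98 (adjusted p = 0.0134).

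Mmp11 encodes stromelysin-3, which is activated by furin inside the cell and was first described in the stroma of breast carcinomas. It ranged from 2.61 CPM in tumour 24 over a median of 8.48 to 54.6 CPM in tumour 21, against 5.23, 10.3 and 5.17 CPM in epithelium. Tumours 1 and 21 stood clearly above epithelium and tumour 20 just above it, while tumours 24 and 27 lay below, so the groups overlapped (log2 fold change 1.05, SE 0.86, adjusted p = 0.398). Without tumour 21 the difference was 0.42. Mmp11 lies on chromosome 10 at 75923222 to 75936496, minus strand, and overlaps Chchd10 on the opposite strand, which had 5.97 to 34.9 CPM in tumours and 10.8 to 14.5 CPM in epithelium. Reads of overlapping genes on opposite strands can be split only if the counting used strand, a setting that neither the labels nor the processing notes record.

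The gelatinases Mmp2 and Mmp9 varied widely between tumours. Mmp2, gelatinase A (chromosome 8, 92827291 to 92853420, plus strand), is mostly a product of fibroblasts in many tissues. It ranged from 50.1 CPM in tumour 5 over a median of 83.7 to 955 CPM in tumour 21, against 162, 181 and 201 CPM in epithelium. Tumours 21, 17 and 24 lay above every epithelium library and the other 6 tumours below all of them, so that no tumour fell within the epithelium range. The log2 fold change was 0.46 (SE 0.91, adjusted p = 0.746), and its sign depended on 1 tumour: without tumour 21 it was -0.16, and limma-voom gave -0.38.

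Mmp9, gelatinase B (chromosome 2, 164940780 to 164955850, plus strand), is typical of neutrophils, macrophages and osteoclasts. It ranged from 1.66 CPM in tumour 20 over a median of 5.76 to 371 CPM in tumour 1, against 10.8, 10.4 and 9.06 CPM in epithelium. Tumour 1 was 224 times as high as tumour 20, the widest range of the 10 genes. Tumours 1, 21 and 5 lay above the epithelium libraries, tumour 14 within their range and 5 tumours below. The log2 fold change of 2.34 (SE 1.70, adjusted p = 0.339) came down to 0.12 without tumour 1 (adjusted p = 0.937).

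The membrane-type enzymes were less scattered. Mmp14, which activates the Mmp2 proenzyme at the cell surface (chromosome 14, 54431612 to 54445364, plus strand), ranged from 70.1 CPM in tumour 14 over a median of 183 to 500 CPM in tumour 1, against 102, 96.6 and 99.5 CPM in epithelium. Of the tumours, 8 of 9 lay above all 3 epithelium libraries, tumours 1 and 21 most, while tumour 14 lay below them. Its difference was 1.16 on the log2 scale (SE 0.56, adjusted p = 0.151). DESeq2 gave 1.16 (adjusted p = 0.0999), and limma-voom, with 0.89 (adjusted p = 0.0226), called it higher.

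Mmp15, a second membrane-type enzyme (chromosome 8, 95352268 to 95375080, plus strand), had the narrowest range of the 10 genes. It ranged from 34.7 CPM in tumour 1 over a median of 50.6 to 120 CPM in tumour 17, against 74.4, 74.7 and 53.4 CPM in epithelium. The groups overlapped, with 3 tumours above and 5 below all epithelium libraries (log2 fold change -0.10, SE 0.39, adjusted p = 0.872).

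Among the inhibitors, Timp1 was the one that rose. Timp1, which blocks most secreted MMPs and binds the Mmp9 proenzyme but is a weak inhibitor of membrane-type enzymes, lies on chromosome X at 20870166 to 20874735. It ranged from 10.8 CPM in tumour 27 over a median of 50.1 to 168 CPM in tumour 5, against 5.71, 5.53 and 4.16 CPM in epithelium. Every tumour lay above every epithelium library, with tumours 5 and 21 highest and tumours 27 and 20 nearest to epithelium. On the log2 scale it was higher by 3.56 (SE 0.92, edgeR adjusted p = 0.0170). The call was lost without any 1 of the epithelium libraries (adjusted p = 0.0743 to 0.0862) and once the share of alignments in no gene entered the fit as a covariate, where the log2 fold change was 3.68 and its SE 1.28 (adjusted p = 0.132). It held in the other 16 of 20 alternatives. Timp1 overlaps Syn1 on the opposite strand, a neuronal gene at 0 to 0.912 CPM in tumours and 0 to 0.237 CPM in epithelium.

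Timp2, which both blocks MMPs and bridges Mmp14 to the Mmp2 proenzyme (chromosome 11, 118301069 to 118355740, minus strand), ranged from 40.9 CPM in tumour 24 over a median of 133 to 353 CPM in tumour 21, against 204, 169 and 203 CPM in epithelium. Tumours 21, 1 and 27 lay above the epithelium libraries and the other 6 below them (log2 fold change -0.30, SE 0.61, adjusted p = 0.757). It overlaps Cep295nl on the same strand, which had 0.922 to 10.6 CPM in tumours and 2.91 to 5.27 CPM in epithelium.

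Timp3, which stays bound to the matrix and also blocks ADAM proteases (chromosome 10, 86300372 to 86349506, plus strand), ranged from 72.1 CPM in tumour 24 over a median of 172 to 939 CPM in tumour 27, against 482, 501 and 347 CPM in epithelium. Tumour 27 lay above all epithelium libraries and the other 8 tumours below all of them. As a log2 fold change the difference was -0.81 (SE 0.60, adjusted p = 0.347) and became -1.40 without tumour 27 (adjusted p = 0.00979), which edgeR called lower. With all 9 tumours limma-voom called it lower (-1.19, adjusted p = 0.0106). DESeq2 also called it lower (-1.32, adjusted p = 0.00248), but its default settings replace outlying counts. Whether the count of tumour 27 was replaced was not examined. Timp3 overlaps Syn3 on the opposite strand, which had 1.61 to 7.77 CPM in tumours and 2.60 to 2.85 CPM in epithelium.

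**Figure D2:**
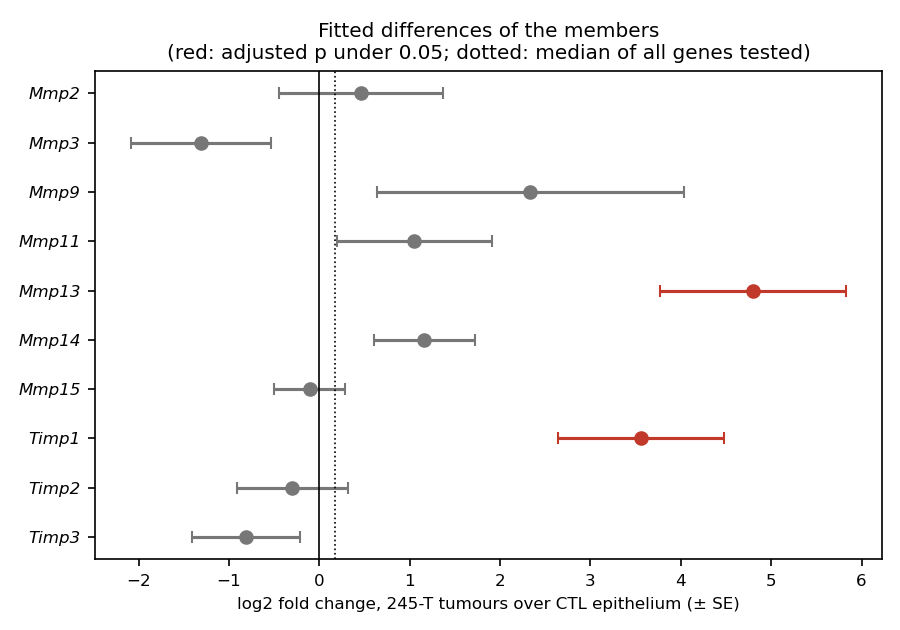
Fitted log2 fold change of tumours over epithelium for each of the 10 genes (points) with its SE (bars), on a linear axis. Mmp13 at 4.80 and Timp1 at 3.56, in red, passed an adjusted p of 0.05, and the dotted line marks the median of all genes tested, 0.17.

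Over the list, 2 of 10 genes were called higher and 0 lower, against 8.89% of all 21456 genes called higher and 11.4% called lower, 20.3% in either direction. DESeq2 called 2 of the 10 higher and 1 lower, where it called 13.6% of all genes higher and 12.8% lower, 26.4% together. The weighted limma-voom fit called 3 higher and 2 lower, and 23.3% of all genes higher and 26.2% lower, 49.6% together, so that by each tool the count over the 10 genes is close to its background. The median log2 fold change of the 10 was 0.76, and that of all genes tested 0.17. The groups did not overlap in 2 of the 10 with tumours higher and in 0 with tumours lower, where 10.2% and 14.1% of all genes had no overlap. At an unadjusted p under 0.05 the edgeR counts were the same, 2 and 0. Without tumour 4 the counts stayed at 2 higher and 0 lower.

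Spread among tumours was wide in most of the 10 genes. The SD of log2 CPM over the 9 tumours was 0.66 in Mmp15, 0.93 in Mmp14 and 1.01 in Timp3, 1.18 to 1.72 in Mmp2, Mmp3, Mmp11, Mmp13, Timp1 and Timp2, and 2.47 in Mmp9. All 10 lay above 0.65, the median over the 10768 genes that averaged 10 CPM or more in tumours, Mmp15 only just. The 3 epithelium libraries lay closer together than the tumours in all 10 genes, but not to the same degree. Their SD of log2 CPM was 0.036 in Mmp14 (96.6 to 102 CPM), the smallest. It was 0.56 in Mmp11, 0.60 in Mmp3 and 0.625 in Mmp13, the largest.

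**Figure D3:**
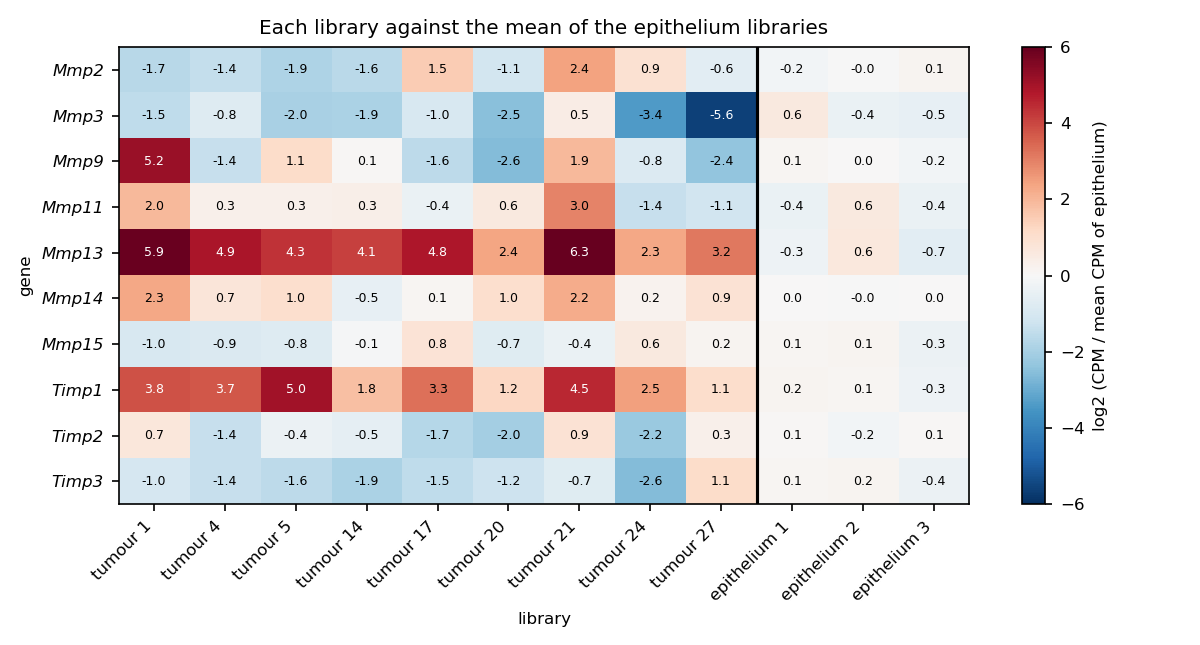
Each library's CPM over the mean of the 3 epithelium libraries, on the log2 scale, with the 10 genes in rows and tumours left of epithelium. Mmp13 and Timp1 are above 0 in every tumour, and the columns of tumours 1, 21 and 27 differ most from the others.

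Tumour by tumour, the 10 genes made different mixtures. Levels of different genes are compared here as CPM per kb of exonic length. By that measure Mmp9 led in tumour 1 (105 CPM per kb), Timp1 in tumours 4 and 5 (77.8 and 189), Timp2 in tumour 14 (34.3) and Mmp14 in tumour 20 (33.5). Mmp2 led in tumours 17, 21 and 24 (153, 283 and 102 CPM per kb), and Timp3 led in tumour 27 (115). In epithelium Timp3 led in libraries 1 and 2 (59.2 and 61.5) and Mmp2 in library 3 (59.8).

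The order of levels thus differed between the groups. By median over tumours it ran from Timp1 (56.5 CPM per kb) through Timp2 (34.3), Mmp14 (30.6), Mmp2 (24.8), Timp3 (21.1), Mmp3 (10.03), Mmp15 (9.38), Mmp13 (7.21) and Mmp11 (3.05) to Mmp9 (1.63), and each of these neighbours overlapped in range. By mean over epithelium it ran from Timp3 (54.4) through Mmp2 (53.9), Timp2 (49.3), Mmp3 (38.0), Mmp14 (16.7), Mmp15 (12.5), Timp1 (5.78), Mmp9 (2.85) and Mmp11 (2.48) to Mmp13 (0.357). There the first 4 overlapped with their neighbours, as did Mmp9 with Mmp11, while the other steps were free of overlap. Timp1 stood first by tumour median and seventh in epithelium, and Mmp13 was lowest in epithelium by a wide margin.

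Highest and lowest values fell in several tumours. Tumour 21 was the highest tumour for Mmp2, Mmp3, Mmp11, Mmp13 and Timp2. Its summed level of 12 fibroblast markers was 35296 CPM, against 2220 to 7624 CPM in the other 8 tumours and 4963 to 7392 CPM in epithelium. Most of that sum was Col1a1, Col1a2 and Col3a1 (5883, 6815 and 17738 CPM), which are also among the matrix substrates. Its macrophage marker sum of 3431 CPM was second to that of tumour 4 (3539 CPM), and its osteoclast marker sum of 195 CPM was the highest among tumours. Tumour 1 was highest for Mmp9 and Mmp14 and second for Mmp11, Mmp13 and Timp2, with a fibroblast sum of 7624 CPM and a neutrophil marker sum of 118 CPM. Tumour 27 was highest for Timp3 and lowest for Mmp3 and Timp1, and its summed basal and myoepithelial markers reached 4653 CPM, against 226 to 2115 CPM in the other tumours and 1385 to 1949 CPM in epithelium. Tumour 24 was the lowest tumour for Mmp11, Mmp13, Timp2 and Timp3, with a macrophage marker sum of 928 CPM and a fibroblast sum of 2550 CPM. Neither sum was the lowest among tumours (633 CPM in tumour 20 and 2220 CPM in tumour 5). The part of these cell types in the levels was not tested.

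Ratios within a library do not depend on the scaling between libraries. The ratio of Mmp14 to Timp2, per kb, ranged from 0.344 in tumour 14 over a median of 1.04 to 2.78 in tumour 20, against 0.325, 0.373 and 0.321 in epithelium. Tumour 14 fell within the epithelium range and the other 8 tumours lay above it (mean 1.21 ± 0.742 in tumours, SD, n = 9, and 0.339 ± 0.0290 in epithelium, SD, n = 3). The ratio of Mmp9 to Timp1 ranged from 0.0139 in tumour 4 over a median of 0.0448 to 1.30 in tumour 1, against 0.472 to 0.547 in epithelium, so 8 of 9 tumours lay below epithelium and tumour 1 above it.

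The summed 7 MMP genes over the summed 3 TIMP genes gave 0.331 in tumour 5, a median of 1.37 and 2.89 in tumour 24, against 1.08 to 1.20 in epithelium. By this measure, per kb, tumours 1, 17, 20, 21 and 24 lay above epithelium and the other 4 below. From plain CPM most tumours lay above epithelium, so this split depends on the exonic lengths used. Mmp14 over Timp2 was mostly higher and Mmp9 over Timp1 mostly lower, and for a ratio of single genes the side does not depend on length. These ratios are of transcripts and do not measure enzyme activity.

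**Figure D4:**
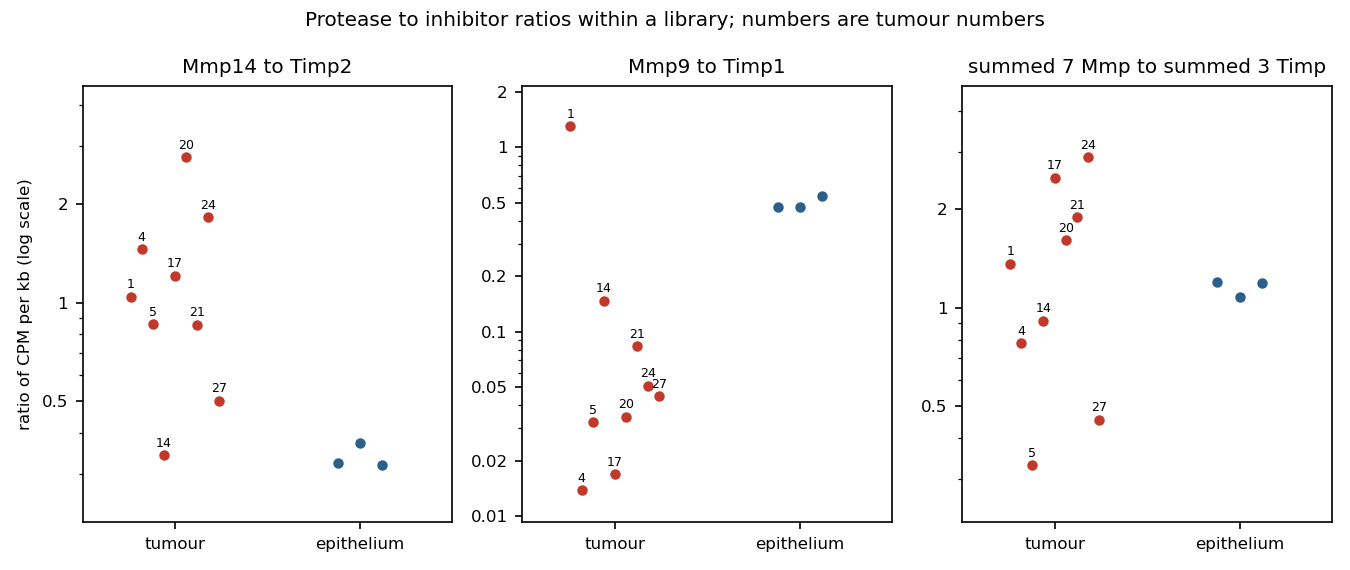
Ratios of protease to inhibitor transcripts within each library, from CPM per kb on log axes, with the 9 tumours (red, numbered) left of the 3 epithelium libraries (blue). Mmp14 over Timp2 lies above epithelium in 8 of 9 tumours, Mmp9 over Timp1 lies below it in 8 of 9, and the summed ratio lies on both sides.

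Of 17 other MMP and TIMP genes 13 passed the filter, of which 2 were called higher and 4 lower (15.4% and 30.8%, where 8.89% and 11.4% of all genes were called), with a median log2 fold change of -0.40. Mmp10, stromelysin-2, ran from 0.0737 to 9.81 CPM in tumours, against 0.0676 to 0.174 CPM in epithelium (log2 fold change 4.57, SE 1.37, adjusted p = 0.0326) and lay above epithelium in 8 of 9 tumours. Mmp24, a membrane-type enzyme of neural tissue, was called on 201 counts over tumours and 1 over epithelium, a ratio of pooled rates of 76.8 with an exact 95% counting interval from 13.6 to 3047. Its fitted difference of 5.71 depends on the prior count.

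Timp4, the remaining inhibitor, fell. It averaged 0.333 ± 0.367 CPM in tumours, with 0 counts in tumour 5, against 9.32 ± 1.57 CPM in epithelium (log2 fold change -4.80, SE 0.90, adjusted p = 0.00256), below epithelium in all 9 tumours. Mmp28, also called epilysin, was lower as well (-1.77, adjusted p = 0.00565), as were Mmp25, a leukocyte enzyme anchored to the membrane (-2.06, adjusted p = 0.0399), and Mmp27 (-2.04, adjusted p = 0.0410), each at under 8 CPM in every library. The 7 not called were Mmp7 (4.40), Mmp8 (3.35), Mmp12 (1.80), Mmp16 (-1.35), Mmp17 (-0.40), Mmp19 (0.17) and Mmp23 (-1.17), values in parentheses being log2 fold changes. Mmp12, the macrophage elastase, was lowest in tumour 4 (7.66 CPM) and highest in tumour 5 (97.5 CPM), against 6.78 to 13.8 CPM in epithelium. Without any 1 epithelium library 0 or 1 of these genes were called higher and 2 lower, and without tumour 5, 14, 17 or 20 there were 2 lower. Mmp1a, Mmp1b, Mmp20 and Mmp21 stayed under the filter, and 40 of the 40 Mmp1b counts were in tumours.

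Activators, inhibitors and partners of MMPs gave 3 genes called higher and 1 lower of 25 tested, with a median log2 fold change of 0.68. These shares, 12% higher and 4.0% lower, lie near or below those of all genes. DESeq2 called 7 higher, where it called 13.6% of all genes higher, and limma-voom 6, where it called 23.3%. Serpine2, protease nexin-1, an inhibitor of plasminogen activators and thrombin, averaged 244 ± 184 CPM in tumours, against 11.5 ± 1.03 CPM in epithelium (log2 fold change 4.40, SE 0.79, adjusted p = 0.00197). Lcn2, a lipocalin that forms a complex with Mmp9, averaged 2176 ± 1864 CPM in tumours, against 138 ± 54.7 CPM in epithelium (log2 fold change 3.98, adjusted p = 0.0135). Bsg, which induces MMPs in neighbouring cells, averaged 376 ± 145 CPM in tumours, against 142 ± 15.1 CPM in epithelium (log2 fold change 1.41, adjusted p = 0.0231). Spock2, a testican proteoglycan, was lower (-2.62, adjusted p = 0.0407). Without any 1 epithelium library 1 or 2 were higher and 0 lower, and Spock2 was also lost without tumour 1, 5, 14, 17, 21 or 24.

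ADAM and ADAMTS proteases, relatives of the MMPs, gave 0 genes called higher and 3 lower of 22 tested (median -0.05), and 13.6% lower is close to the 11.4% of all genes. Adam23, which has no protease activity, averaged 7.40 ± 5.34 CPM in tumours, against 76.7 ± 20.9 CPM in epithelium (log2 fold change -3.38, adjusted p = 0.00108). Adamts1, which cuts proteoglycans, averaged 77.8 ± 54.9 CPM in tumours, against 498 ± 205 CPM in epithelium (log2 fold change -2.68, adjusted p = 0.00507), and Adam33 was lower as well (log2 fold change -2.37, adjusted p = 0.0153). In the upward direction edgeR had 0 at an unadjusted p under 0.05 too, and so had DESeq2 and limma-voom after adjustment.

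Matrix substrates gave 3 genes called higher and 0 lower of 20 tested, with a median of 0.95. That is 15.0% higher, against 8.89% of all genes. DESeq2 called 5 higher, where it called 13.6% of all genes higher, and limma-voom 6, where it called 23.3%. Spp1, osteopontin, which several MMPs cut, averaged 1320 ± 1329 CPM in tumours, against 18.0 ± 13.3 CPM in epithelium (log2 fold change 6.20, SE 1.42, adjusted p = 0.00891). Tnc, the glycoprotein tenascin-C, averaged 847 ± 993 CPM in tumours, against 69.9 ± 9.69 CPM in epithelium (log2 fold change 3.60, adjusted p = 0.0336). Col4a2, a chain of basement membrane collagen, averaged 981 ± 709 CPM in tumours, against 255 ± 13.9 CPM in epithelium (log2 fold change 1.94, adjusted p = 0.0472). All 9 tumours lay above all epithelium libraries in each of the 3, and in Bgn, which was not called (edgeR adjusted p = 0.131). Dcn, not called either, lay below epithelium in all 9 tumours. It averaged 180 ± 246 CPM in tumours, against 1071 ± 311 CPM in epithelium (log2 fold change -2.57, edgeR adjusted p = 0.0623). Of all genes 10.2% had no overlap with tumours higher and 14.1% with tumours lower. In the downward direction edgeR had 1 gene at an unadjusted p under 0.05. DESeq2 called 1 lower and limma-voom 2, where they called 12.8% and 26.2% of all genes lower. The list's counts were 0 or 1 higher without any 1 epithelium library, 2 higher without tumour 4, and 2 lower without tumour 21 and 1 lower without tumour 27. With the covariate for alignments in no gene, none of the genes of these 4 lists was called in either direction by edgeR.

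Markers of the cell types that can make MMPs and TIMPs were counted in the same fit. Over all genes edgeR called 8.89% higher and 11.4% lower, DESeq2 13.6% and 12.8%, and limma-voom 23.3% and 26.2%. The counts of every marker list stand against these shares. Of 12 macrophage markers 4 were higher in tumours (C1qa, C1qb, C1qc and Fcgr1) and 0 lower, and without any 1 epithelium library 0 or 1 were higher. Their summed level was 633 to 3539 CPM in tumours, against 886 to 1198 CPM in epithelium, and Lyz2, the most abundant, averaged 510 ± 384 CPM in tumours, against 506 ± 144 CPM in epithelium. Of 12 fibroblast markers edgeR called 0, with 1 higher and 2 lower at an unadjusted p under 0.05, while DESeq2 called 4 lower and limma-voom 5, and each of these tools called 1 higher. Without tumour 21 edgeR called 4 of them lower, and without tumour 27 it called 1 lower. Col3a1, a fibrillar collagen, averaged 3075 ± 5523 CPM in tumours, against 2184 ± 541 CPM in epithelium.

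Neutrophil markers gave 0 calls by edgeR among 7 tested, with 1 higher at an unadjusted p under 0.05, 1 by DESeq2 and 2 by limma-voom. Their sum was 15.2 to 293 CPM in tumours, against 16.6 to 40.1 CPM in epithelium, and S100a8 averaged 24.6 ± 42.8 CPM in tumours, against 2.46 ± 2.71 CPM in epithelium. Of 10 endothelial markers 6 were lower and 0 higher, 0 higher also at an unadjusted p under 0.05 and by the other tools. The lower count was 3 to 5 without any 1 epithelium library, 3 without library 2. Their sum was 184.7 to 605 CPM in tumours, against 893 to 1050 CPM in epithelium, and Pecam1 averaged 88.1 ± 32.1 CPM in tumours, against 378 ± 18.1 CPM in epithelium. Osteoclast markers, 5 tested, gave 0 calls by edgeR, 2 higher at an unadjusted p under 0.05, and 2 higher by DESeq2 and by limma-voom. Their sum was 30.2 to 195 CPM in tumours, against 72.8 to 88.1 CPM in epithelium, and Acp5 averaged 54.6 ± 35.2 CPM in tumours, against 43.4 ± 4.42 CPM in epithelium.

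Cartilage and bone markers gave 3 higher of 6 tested (Acan, Col2a1 and Col10a1). Their sums were 47.0 to 1199 CPM in tumours, against 42.3 to 57.9 CPM in epithelium. Col9a1, the most abundant of the list, was not called (edgeR adjusted p = 0.0617). It averaged 274 ± 376 CPM in tumours, against 5.85 ± 5.13 CPM in epithelium. Luminal markers gave 3 higher (Epcam, Cdh1 and Cldn3) and 1 lower (Esr1) of 10. These counts became 0 or 1 higher without any 1 epithelium library and 3 lower without tumour 27. Krt18, the most abundant of the list, was not called (edgeR adjusted p = 0.434). It averaged 993 ± 594 CPM in tumours, against 616 ± 132 CPM in epithelium. Basal and myoepithelial markers gave 0 calls of 10 by edgeR and 0 at an unadjusted p under 0.05, but 4 lower by DESeq2, 6 by limma-voom and 3 by edgeR without tumour 27. Acta2 averaged 304 ± 393 CPM in tumours, against 498 ± 33.2 CPM in epithelium. Adipocyte markers gave 2 lower of 9, and Fabp4 averaged 32.6 ± 26.4 CPM in tumours, against 418 ± 96.3 CPM in epithelium. All 10 T and NK cell markers and all 8 B cell markers were lower in the fit by group alone. With the covariate for alignments in no gene 6 T and NK cell, 0 B cell, 1 endothelial and 2 adipocyte markers were lower, and no macrophage, cartilage and bone or luminal marker was called. Il7r averaged 6.04 ± 3.47 CPM in tumours, against 151.5 ± 19.0 CPM in epithelium, and Cr2 averaged 1.95 ± 2.81 CPM in tumours, against 205 ± 49.8 CPM in epithelium. No list had a marker at 0 in all tumours, and the part of these differences in the MMP and TIMP levels was not tested.

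Across the 9 tumours each of the 10 genes was set against the score of 6 marker lists, the mean log2 CPM of a list, in 60 relations. None passed an adjusted p of 0.05 by Pearson or by Spearman with exact permutation over all 362880 pairings, two-sided, and 10 had an unadjusted p under 0.05 by Pearson. The closest were 3 with the same adjusted exact permutation p of 0.0579. Mmp3 followed the macrophage score (r = 0.89, exact permutation p = 0.00108, rho = 0.90, p = 0.00203), with r = 0.94 without tumours 20 and 27, the 2 farthest from the median score. Mmp13 did the same (r = 0.88, exact permutation p = 0.00226, rho = 0.90, p = 0.00203), with r = 0.86 without those tumours.

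Mmp11 was set against the fibroblast score with r = 0.85 (exact permutation p = 0.00290, rho = 0.83, p = 0.00827), which was 0.56 without tumours 21 and 24 and so rests in part on them. Timp1 and the macrophage score gave r = 0.83 (exact permutation p = 0.00566, adjusted 0.0849), or 0.61 without tumours 20 and 27. Mmp15 had the strongest relation of negative sign, with the neutrophil score (r = -0.79, exact permutation p = 0.0140, adjusted 0.148). Timp3 gave r = 0.76 with the basal and myoepithelial score, or 0.40 without tumours 20 and 27, and r = 0.75 with the endothelial score, or 0.79 without tumours 14 and 24 (exact permutation p = 0.0194 and 0.0197, adjusted 0.148 for both). Several genes were related to more than 1 score at an unadjusted exact permutation p under 0.05. Mmp11 with the macrophage score gave r = 0.71 (0.86 without tumours 20 and 27). With the fibroblast score Mmp3 gave r = 0.75 and Mmp13 r = 0.71 (0.66 and 0.43 without tumours 21 and 24). The gelatinases had no relation at an unadjusted p under 0.05 by Pearson. Mmp2 with the fibroblast score gave r = 0.51 (rho = 0.10), or 0.12 without tumours 21 and 24. Mmp9 gave r = 0.34 with the neutrophil score (0.73 without tumours 4 and 5) and 0.59 with the macrophage score (0.30 without tumours 20 and 27). Among the 45 pairs of the 10 genes none passed by either measure, and the smallest Spearman p was that of Mmp3 with Mmp13 (rho = 0.88, exact permutation p = 0.00308, adjusted 0.138).

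**Figure D5:**
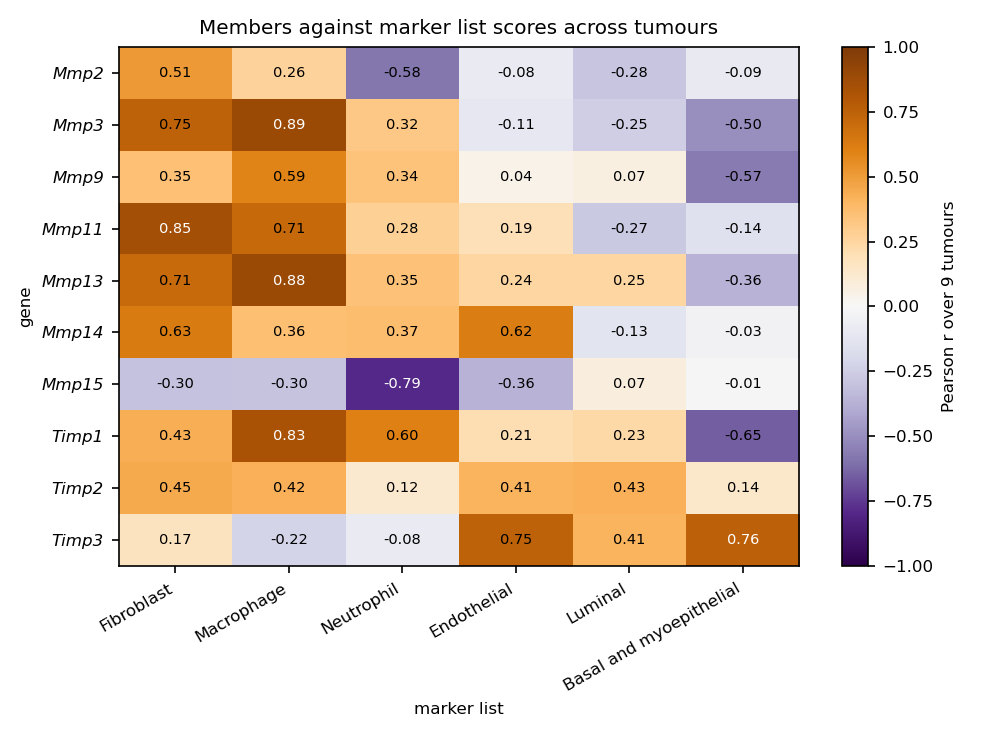
Pearson r over the 9 tumours between log2 CPM of each of the 10 genes (rows) and the score of 6 marker lists (columns). The strongest are Mmp3 and Mmp13 with macrophage markers at 0.89 and 0.88 and Mmp11 with fibroblast markers at 0.85, and none passed an adjusted p of 0.05.

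Genes with the pattern most like that of each member over the 9 tumours were ranked by Pearson r, as a description from samples that share libraries and depth. Each member was compared with 10313 genes. The best of so many over 9 tumours can reach a high r without any relation, and no test was made. Those for Mmp3 were Cdh11, a cadherin of mesenchymal cells (0.96), Colec12 (0.96) and Spon1 (0.95). Mmp13 was most like Bin2, a gene of blood cells (0.96), Neurl3 (0.95) and Slc8a1 (0.95), and Mmp9 like Sh3d19 (0.98), Zmiz2 (0.96) and Fmnl1 (0.96). For Mmp11 they were Nfatc2 (0.97), Stra6 (0.96) and Emp3 (0.94), for Mmp14 Celf2 (0.95), Usp34 (0.95) and Hspg2, the basement membrane proteoglycan perlecan (0.94), and for Mmp15 Osbpl1a, Tnfrsf11a and Parm1 (0.93, 0.93 and 0.92). The inhibitors were most like Cmtm3, Lgmn and Fxyd5 (Timp1, 0.94 to 0.92), Slc45a4, Naglu and Prkca (Timp2, 0.96 to 0.94) and Pld1, Epas1 and Pi15 (Timp3, 0.95 to 0.94). Mmp2 had the least close matches, Mtss1l (0.84), Sec16b (0.82) and Lrp4 (0.81).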

How the data were processed

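Total RNA was made into stranded TruSeq libraries from 9 245-T tumours and 3 CTL epithelium preparations, per the labels. The authors deposited raw counts per gene for each library, whole numbers with no normalization. The build GRCm38 and the tools HTSeq 0.11.0, TopHat2 2.1.1 and FastQC 0.11.8 come from the submitters' processing notes. Not given in the sources used here were annotation release, strand setting and the unit counted (reads or pairs). The 5 summary rows of each file were left out of the totals. The 10 genes and all lists were chosen with earlier results of these data known. Counts were fitted over all genes in R 4.3.3 with edgeR 4.0.16 (filterByExpr, TMM, robust quasi-likelihood F test, group only, Benjamini-Hochberg adjustment); SE is the size of the log2 fold change divided by the root of F. The fit was tested on simulated data. Alternatives were RLE and upper quartile scaling, TMM factors that leave out the 50 most abundant genes, no low-count filter, at least 10 counts in 9 libraries, DESeq2 1.42.0, limma-voom (limma 3.58.1), a covariate for the share of alignments in no gene, and leaving out each library. DESeq2 ran with default settings, which replace outlying counts in larger groups, was given 38829 genes and left 10586 without an adjusted p. List counts under these alternatives were added after seeing the data. No libraries were copies of each other (chi-square per degree of freedom within a group at least 217 in tumours and 24.1 in epithelium). Intervals and floors cover counting error only. Scores, relations and promoter motifs were computed in Python 3.11.15 with scipy 1.17.1, positions and exonic lengths came from GENCODE M21, and each score averages log2 CPM (prior count 2) over a list. Named were all 10 genes, every tested gene of the family list, up to 3 called genes in the main direction and 2 in the other of each pathway list, the most abundant gene of each marker list, and the 3 genes most like each member among those with at least 10 CPM, leaving out predicted and clone names. Other marker genes named, and Bgn and Dcn among the matrix substrates, were chosen after their values were seen. Protein sequences were not used here.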

Additional observations from a re-analysis of the deposited data

Results flagged for a closer look

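A single tumour stood apart from the other 8 by Dixon's test in 12 of 37 items examined. Chance alone marks about 1 in 20 groups only where values are normally distributed. These CPM, sums and ratios were taken without a log and are skewed upward, so that rate is no background for them. The items are also not independent of each other. Tumour 21 stood apart in Mmp3 (93.5 CPM, next tumour 4 at 40.2), Mmp11 (54.6 CPM), Mmp19 (162.7 CPM), Mmp23 (27.4 CPM), Mmp27 (1.78 CPM) and the summed fibroblast markers (35296 CPM). Tumour 1 stood apart in Mmp9 (371 CPM, next tumour 21 at 38.8) and in the ratio of Mmp9 to Timp1 (1.30). Tumour 27 stood apart in Timp3 (939 CPM, next tumour 21 at 265) and in the summed basal and myoepithelial markers (4653 CPM). Tumour 4, whose library stood apart in depth and composition, did so in Mmp7 (9.85 CPM), and tumour 20 in Mmp16 (6.30 CPM).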

How the results depend on the processing

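Mmp13 was called in 20 of 20 alternatives and Timp1 in 16 of 20, with no change of sign. With 2 of the 10 genes called higher and 0 lower, DESeq2 gave 1 lower, limma-voom gave 2 lower, the covariate gave 1 higher, and leaving out 1 library gave 1 to 2 higher and 0 to 1 lower. Over all genes, 1908 higher and 2438 lower, DESeq2 gave 3830 higher, limma-voom 5006 higher and 5628 lower, and the covariate 202 higher and 456 lower. Leaving out 1 library gave 506 to 2486 higher and 1496 to 2753 lower, the lowest of each when an epithelium library was left out and only 2 remained. The median of all genes was 0.17, and moved to 0.38 with no filter, 0.35 under DESeq2, 0.32 with the covariate and -0.02 under limma-voom. Signs turned for Mmp2 under limma-voom (-0.38) and without tumour 21 (-0.16, in a range up to 0.60 over the libraries left out), and with the covariate for Mmp15 (0.19) and Timp2 (1.00); none of these 3 genes was called. Relations past an adjusted p of 0.05 numbered 0, but 1 under RLE scaling and 0 to 3 when a tumour was left out. The tumour mean of the summed ratio, 1.42 per kb, was 1.76 from CPM, and from CPM most tumours lay above epithelium. The 7 genes with a 10-fold spread remained 7 without tumour 4. The cause of these changes was not tested. The share of alignments in no gene does not overlap between groups, so its effect and that of the group cannot be told apart. No paired analysis was possible because the labels give no pairing between tumours and epithelium libraries. Genes under about 1 CPM in epithelium, such as Mmp13, Mmp10 and Mmp24, are limited by depth.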

Other observations

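Some family members too rare for the comparison sat in single tumours. Of 28 Mmp1a counts over the tumours and 40 Mmp1b counts, most were in tumour 1, at 0.898 CPM and 1.16 CPM, where Mmp10 (9.81 CPM), Mmp24 (2.69 CPM) and Mmp25 (4.99 CPM) also had their highest tumour values. Mmp8, the neutrophil collagenase, reached 10.4 CPM in tumour 5 and 9.85 CPM in tumour 4, the tumours with the highest neutrophil marker sums (177 and 293 CPM), against 0.203 to 0.416 CPM in epithelium, and was 3.09 CPM in tumour 1 with a neutrophil sum of 118 CPM. In the other 6 tumours Mmp8 was 0.0987 to 1.35 CPM. Mmp12 followed another order, highest in tumours 5, 24 and 1 at 97.5, 67.3 and 61.5 CPM. These values were picked after they were seen and carry no test.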
